A study of Mus musculus with 2 samples.

Results

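B cell precursors were examined in single-cell transcriptomes of mandibular first molars with their surrounding tissues at PN15.5. They were selected by 3 genes of early B lineage cells, Vpreb3, Igll1 and Rag1, as cells with at least 3 unique molecular identifiers (UMIs) summed over these genes, at least 200 detected genes, at most 20% mitochondrial UMIs and at most 2% of UMIs from the collagen gene Col1a1. This rule found 376 cells in the Lipo-Clo library and 185 in the Lipo-PBS library, 561 in all, among 17780 cells that passed the gene and mitochondrial limits and 19015 deposited cells. All mice were C57BL/6J. The Lipo-Clo mice had been given clodronate liposomes, which deplete phagocytic macrophages, at 40 μg/g by intraperitoneal injection every 3 days from PN3.5 on, 4 times in all, and the Lipo-PBS mice had been given vehicle liposomes at the same ages. Each condition was 1 library, the number of mice in a library is not given in the sources used here, and mice of both sexes were used. No test between conditions was therefore possible. Intervals in brackets are exact 95% intervals (Clopper-Pearson for shares, Poisson for counts) and cover counting error alone. Where values are paired without a label, Lipo-Clo comes first.

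B cells form from lymphoid progenitors by stepwise rearrangement of the immunoglobulin genes. Rag1 and Rag2 cut the DNA, and Dntt (terminal deoxynucleotidyl transferase) adds bases at heavy chain joins. A rearranged heavy chain (Ighm) is first carried with the surrogate light chain, which is made of Igll1 (lambda 5) and Vpreb1 or Vpreb2, and with the signalling chains Cd79a and Cd79b. This pre-B cell receptor drives large pre-B cells through division. They then silence the surrogate light chain, leave the cycle as small pre-B cells and rearrange a kappa (Igkc) or lambda (Iglc) light chain. Interleukin 7, made by marrow stroma and sensed through Il7r, is the main growth factor of these cells in mice. Vpreb3 is a chaperone-like protein that stays on later than the surrogate light chain. The files list Vpreb1 as Vpreb1a and Vpreb2 as Vpreb1b, matched here by their Ensembl identifiers.

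The promoters of Igll1, Vpreb1 and Vpreb3 are shown because these genes chose the cells and their stages. Igll1 and Vpreb1 define the surrogate light chain gate used below, and Vpreb3 carried most of the selection, so where each was found is fixed by these choices. Each is the 300 bases that run from 250 before to 50 after the gene start in RefSeq on GRCm38.p6, printed 5′ to 3′ on the gene's own strand. Capitals mark matches, on either strand, to the EBF-type motif CCCNNGGG, the E-box CAGCTG or the octamer ATTTGCAT. Igll1 lies at chr16:16863936-16864235 on the minus strand, Vpreb1 at chr16:16869206-16869505 on the minus strand, and Vpreb3 at chr10:75948050-75948349 on the plus strand.
Igll1: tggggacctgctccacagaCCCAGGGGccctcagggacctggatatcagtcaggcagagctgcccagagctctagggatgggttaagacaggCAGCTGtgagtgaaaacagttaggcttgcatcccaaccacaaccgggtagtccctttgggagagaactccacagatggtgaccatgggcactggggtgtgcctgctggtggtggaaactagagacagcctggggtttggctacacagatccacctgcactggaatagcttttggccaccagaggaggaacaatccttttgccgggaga
Vpreb1: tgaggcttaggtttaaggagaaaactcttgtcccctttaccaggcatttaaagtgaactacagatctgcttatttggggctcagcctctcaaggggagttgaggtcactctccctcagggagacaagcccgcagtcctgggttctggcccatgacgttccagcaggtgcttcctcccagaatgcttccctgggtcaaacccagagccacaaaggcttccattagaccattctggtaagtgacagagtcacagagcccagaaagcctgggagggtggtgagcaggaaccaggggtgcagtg
Vpreb3: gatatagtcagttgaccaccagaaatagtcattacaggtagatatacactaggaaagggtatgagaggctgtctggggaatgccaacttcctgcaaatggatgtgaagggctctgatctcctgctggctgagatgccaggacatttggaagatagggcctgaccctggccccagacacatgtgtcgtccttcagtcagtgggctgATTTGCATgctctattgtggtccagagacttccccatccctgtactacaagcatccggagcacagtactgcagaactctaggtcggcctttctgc
The Igll1 window held 1 EBF-type match and 1 E-box, the Vpreb3 window held 1 octamer, and the Vpreb1 window held none of these letters. Of 32851 mouse promoter windows of this length, 13.7% held the EBF-type motif, 16.3% the E-box and 1.74% the octamer. A match describes letters and is not evidence of binding.

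The selected cells carried the B lineage genes that the rule did not use. Cd79a was detected in 86.4% of the Lipo-Clo cells and 85.4% of the Lipo-PBS cells. It was detected in 5 of 139 and 2 of 110 T or NK cells (cells gated by T and NK genes) of the same libraries. Ighm was detected in 88.0% and 85.9% of the precursors, against 10.1% and 8.18% of T or NK cells. The name T or NK gives the gate and not the make-up of this group. Its gate genes summed to 1342 UMIs in Lipo-Clo and 1061 in Lipo-PBS. Elane, Mpo and Prtn3, genes of granulocyte-monocyte progenitors, summed to 15955 and 2140 UMIs in the same cells. The group is therefore used as other blood cells and not as a control of lymphocytes alone. Median depth was 1721 UMIs (812.5 genes) per precursor in Lipo-Clo and 2255 UMIs (969 genes) in Lipo-PBS, and 4052 and 2604.5 UMIs per T or NK cell, so the T or NK cells were the deeper ones. The library totals were 31053404 UMIs for Lipo-Clo and 30537834 UMIs for Lipo-PBS, of which the precursors held 1045024 and 523148. Vpreb3 alone carried most of the selection, with 348 Lipo-Clo and 169 Lipo-PBS cells holding at least 3 of its UMIs. At the threshold, 75 and 42 cells held exactly 3 UMIs of the rule genes, and 88.0% and 88.1% of them had Cd79a. Just outside it, 107 and 72 cells held 2 UMIs, and 77.6% and 69.4% of those had Cd79a. The rule therefore cut within a continuous range of B lineage cells. The Col1a1 limit took out a further 42 and 31 cells. The 2 libraries shared 30 cell barcodes. Of these, 3 belonged to a precursor, and none belonged to precursors in both libraries.

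The precursors also held RNA of other cell types. When they were clustered by expression, 179 of 561 cells fell in clusters led by genes of another lineage, 106 of 376 (28.2%) in Lipo-Clo and 73 of 185 (39.5%) in Lipo-PBS. The leading genes were Mgp, Eln and Dcn of mesenchyme in 45 and 39 cells, globins of erythroid cells in 28 and 20, S100a8 and S100a9 of neutrophils in 20 and 9, and Odam, Klk4 and Amtn of enamel epithelium in 13 and 5. Over the whole marker lists, mesenchyme and bone genes summed to 6506 counts per 1000000 UMIs (CPM) in Lipo-Clo against 11140 in Lipo-PBS, with Col1a1 the most abundant. Erythroid genes summed to 71599 and 86689 CPM, led by Hbb-bs. Neutrophil genes summed to 10110 and 11612 CPM, led by S100a9, with 90.7% and 99.3% of these UMIs in the 10 cells richest in them. A neutrophil UMI was found in 67.0% of Lipo-Clo and 26.5% of Lipo-PBS precursors. The median log2 ratio of the neutrophil genes that passed the detection filter used below turned from −0.72 (4 genes) to 2.30 (3 genes) without the 179 cells. Enamel and epithelial genes summed to 2691 and 1707 CPM, led by Odam, and Enam was at 0 in both. Macrophage genes summed to 407 and 763 CPM, and T and NK genes to 34.4 and 147 CPM with Cd4 and Klrb1c at 0. Defining genes of plasma cells (Jchain) and plasmacytoid dendritic cells (Siglech) were at 0 in both libraries, though other genes of these lists were found. The plasma cell list summed to 158 and 189 CPM, led by Irf4, and the plasmacytoid dendritic list to 314 and 411 CPM, led by Tcf4. Irf4 and Tcf4 are also on the list of B lineage transcription factors. Elane, Mpo and Prtn3, which mark granulocyte-monocyte progenitors, had 278 UMIs in the Lipo-Clo precursors and 0 in the Lipo-PBS precursors. The highest doublet scores of each library (7.11% and 7.12% of cells) took 29 Lipo-Clo precursors (7.71%) and 28 Lipo-PBS precursors (15.1%). The part of free RNA or of joined cells in the results below was not tested, and results are given without the 179 cells where they turn on it.

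B cell precursors took a larger share of the Lipo-Clo library. They were 4.23% (3.82 to 4.67) of kept cells in Lipo-Clo against 2.08% (1.79 to 2.40) in Lipo-PBS, a 2.03-fold ratio (log2 1.02, 0.77 to 1.29). Without the 179 cells of other-lineage clusters, 270 and 112 cells remained and the log2 ratio was 1.27 (0.95 to 1.60). Among other blood cells gated by their marker genes, T or NK cells had a log2 ratio of 0.34 (−0.03 to 0.71) and granulocyte-monocyte progenitors 2.12 (1.58 to 2.71). These gates did not exclude each other, so a cell could be in both groups. Since the T or NK cells carried progenitor genes, their share is not that of lymphocytes alone. A larger share can come from more of these cells or fewer of the rest, which cannot be told apart here. Whether marrow around the molars was taken to the same extent in both libraries is not given in the sources used here, and its part in these shares was not tested.

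**Figure D1:**
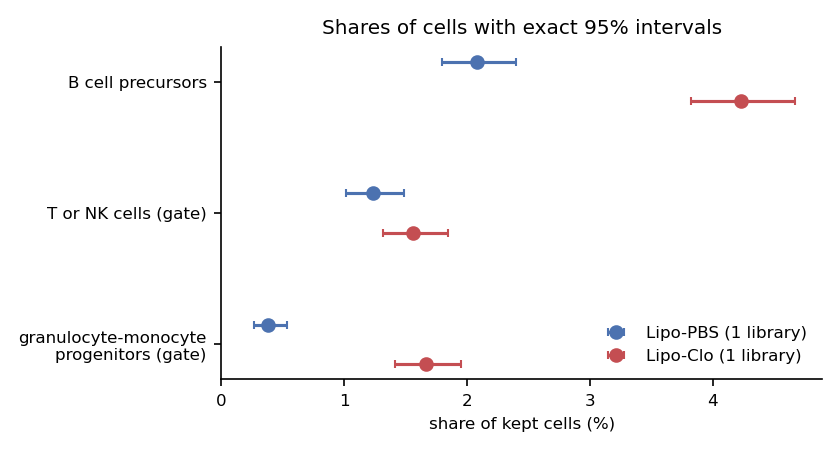
Share of kept cells (%, x axis) in the Lipo-PBS and Lipo-Clo libraries for B cell precursors and 2 other gated blood cell groups, whose gates can share cells. Points are the shares of 1 library each and bars are exact 95% intervals; the precursors stood at 2.08% and 4.23%.

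The precursors split into stages by genes of the surrogate light chain. A cell was called surrogate light chain high with at least 2 UMIs over Igll1 and Vpreb1a, and dividing with at least 3 UMIs over 12 mitosis genes. Cells low for the surrogate light chain were called later with at least 3 UMIs over 8 genes of maturing B cells (Ms4a1, Ighd, Cd74, the MHC class II genes H2-Aa, H2-Ab1 and H2-Eb1, Fcer2a and Cd40) and early otherwise. In Lipo-Clo this gave 60 high dividing, 40 high not dividing, 191 low early and 85 low later cells. In Lipo-PBS it gave 24, 22, 90 and 49. Few cells lay at the surrogate light chain gate, with 15 and 6 cells at 1 UMI and 3 and 5 cells at 2 UMIs. The high cells held a median of 11 such UMIs in Lipo-Clo against 6 in Lipo-PBS.

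The mixture of stages set by the gates was close in the libraries, within wide counting error, whereas expression clusters differed more. Surrogate light chain high cells were 26.6% (22.2 to 31.4) of precursors in Lipo-Clo against 24.9% (18.8 to 31.7) in Lipo-PBS (log2 ratio 0.10, −0.42 to 0.63). Dividing cells were 36.7% (31.8 to 41.8) and 30.8% (24.2 to 38.0) (log2 ratio 0.25, −0.20 to 0.72). These intervals still allow a 1.5-fold higher share in Lipo-Clo for either measure. When the surrogate light chain stage was taken instead as the expression cluster led by Vpreb1a, Dntt and Igll1, it held 67 of 376 and 17 of 185 cells (log2 ratio 0.96, 0.17 to 1.82). Other clusters without a leading lineage outside B cells also differed. The cluster led by Dnajc7, Bcl7a and Cnp held 78 and 10 cells, and that led by Ikzf3, Dnajc7 and Rhoh held 21 and 33. With the gate kept and the 179 cells left out, 72 of 270 and 28 of 112 cells were high (log2 0.09, −0.56 to 0.78). At full depth more of the surrogate light chain high cells met the dividing gate. In the high cells 60.0% (49.7 to 69.7) and 52.2% (36.9 to 67.1) were dividing, against 28.3% (23.0 to 34.0) and 23.7% (16.9 to 31.7) in the low cells. The high cells were deeper, and at matched depth the intervals of high and low cells overlapped in both libraries. Thinned to 1000 UMIs, a choice made after seeing the data, 32.2% (22.8 to 42.9) of high and 36.0% (28.3 to 44.2) of low cells met it in Lipo-Clo, against 36.4% (22.4 to 52.2) and 27.0% (18.1 to 37.4) in Lipo-PBS. At 1 UMI of the same genes, 60.0% (49.1 to 70.2) of high and 52.7% (44.4 to 60.9) of low cells did in Lipo-Clo, against 52.3% (36.7 to 67.5) and 39.3% (29.1 to 50.3) in Lipo-PBS. Depth differed by stage, with medians of 5825 and 4956 UMIs in high dividing cells, 1828 and 2157 in high not dividing, 1219 and 1749 in low early, and 1038 and 1887 in low later. With each cell of at least 1000 UMIs (240 and 133 precursors) thinned to 1000, 23.8% and 21.1% were surrogate light chain high and 34.6% and 30.1% were dividing.

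**Figure D2:**
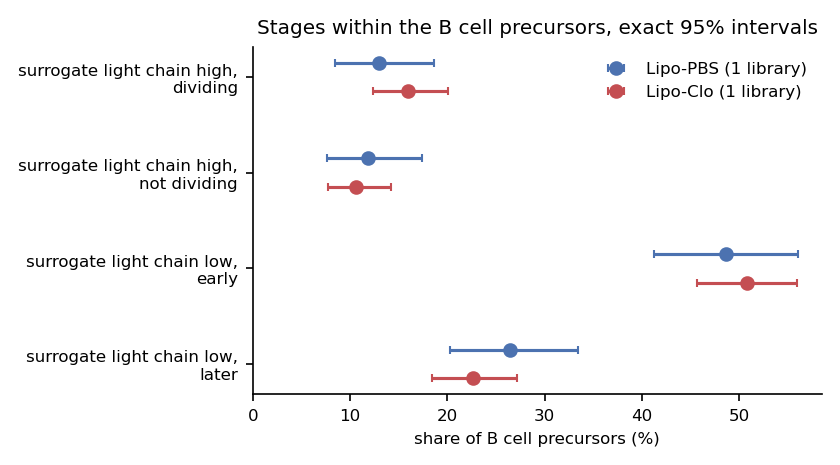
Share of B cell precursors (%, x axis) in each of 4 stages, for the Lipo-PBS and Lipo-Clo libraries. Points are the shares of 1 library each and bars are exact 95% intervals, which overlap between the libraries in every stage.

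Several genes outside the gates separated the surrogate light chain high from the low cells in the same direction in both libraries, though not all did. Dntt was found in high cells alone. It had 78 UMIs (150 CPM) in the 100 high cells of Lipo-Clo and 0 in the 276 low cells, and 37 UMIs (200 CPM) in the 46 high cells of Lipo-PBS and 0 in the 139 low cells. Against a limit of 3 UMIs over the low cells, the level was at least 26.1-fold higher in high cells in Lipo-Clo and at least 22.6-fold higher in Lipo-PBS, and at least 13.5-fold and 10.7-fold higher without the 179 cells of other-lineage clusters. The summed depth of high and low cells was 521422 and 523602 UMIs in Lipo-Clo, and 184726 and 338422 UMIs in Lipo-PBS. A count of 0 allows up to 1.09% of low cells with a Dntt UMI in Lipo-Clo against 2.16% in Lipo-PBS, which does not limit how many expressed it at this depth. Within the high cells, Dntt was higher in those not dividing (295 and 505 CPM) than in those dividing (116 and 83 CPM).

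The transcription factors Lef1 and Erg followed Dntt. Lef1 stood at 140 CPM in high and 34.4 CPM in low cells of Lipo-Clo (log2 ratio 2.03, 1.27 to 2.86), and at 314 and 38.4 CPM in Lipo-PBS (log2 ratio 3.03, 2.15 to 4.02). Erg had log2 ratios of 2.33 (0.92 to 4.07) in Lipo-Clo against 2.24 (0.91 to 3.74) in Lipo-PBS. Vpreb1b, the other surrogate light chain gene, had 65 UMIs in the high and 1 in the low cells of Lipo-Clo, and 14 and 0 in Lipo-PBS. These genes, like Dntt, were found mainly in the cells that carried Igll1 and Vpreb1a. Ebf1 and Cd93 went opposite ways in the libraries. The log2 ratio of high over low cells was −0.55 (−0.69 to −0.42) for Ebf1 in Lipo-Clo against 0.19 (0.02 to 0.36) in Lipo-PBS, and −0.99 (−1.78 to −0.24) against 1.12 (0.23 to 2.03) for Cd93, an early B lineage surface protein. Without the 179 cells both genes were below 0 in both libraries, at −1.07 and −0.14 for Ebf1 and −1.57 and −0.47 for Cd93, and the Lipo-PBS intervals included 0.

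Light chain genes ran the other way. Igkc stood at 224 CPM in high and 3067 CPM in low cells of Lipo-Clo (13.7-fold higher) and at 189 and 2328 CPM in Lipo-PBS (12.3-fold higher). By stage, it was detected in 38.3% of the high dividing, 5 of the 40 high not dividing, 83.8% of the low early and 97.6% of the low later cells of Lipo-Clo, and in 45.8%, 4.55%, 76.7% and 89.8% of those of Lipo-PBS. Thinned to 500 UMIs a cell, which kept every precursor, these shares were 13.3%, 2.50%, 66.0% and 81.2% in Lipo-Clo and 16.7%, 4.55%, 48.9% and 71.4% in Lipo-PBS. Igkc was detected in 2.88% and 3.64% of T or NK cells. The lambda constant genes Iglc1, Iglc2 and Iglc3, summed here because they are similar in sequence, stood at 21.1 CPM in high and 970 CPM in low cells of Lipo-Clo and at 5.41 and 1247 CPM in Lipo-PBS. Of the low cells, 194 (70.3%) in Lipo-Clo against 73 (52.5%) in Lipo-PBS had at least 3 Igkc UMIs, 46 (16.7%) and 32 (23.0%) had at least 3 lambda UMIs, and 30 and 13 had both. Light chain RNA was thus found in many cells still selected by Vpreb3.

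Ighm was present at every stage and higher in low cells, at 533 and 1589 CPM in Lipo-Clo and 487 and 1161 CPM in Lipo-PBS. Ly6d, a surface protein of committed B lineage cells, was 18.7-fold higher in low than in high cells of Lipo-Clo and 14.8-fold higher in Lipo-PBS. Some transcription factors and signalling genes were also higher in low cells. Spib was 7.75-fold and 7.01-fold higher in low cells, Ikzf3 (Aiolos) 8.96-fold and 8.73-fold, the kinase Syk 5.25-fold and 2.21-fold, and Irf4, which acts at the light chain loci, 2.09-fold and 1.98-fold, where the Lipo-PBS interval included equal levels (log2 ratio of high over low −2.32 to 0.18). Blnk, Foxo1 and Pax5 differed less clearly. The log2 ratio of high over low was 0.02 (−0.40 to 0.45) and 0.63 (0.05 to 1.20) for Blnk, −0.60 (−1.16 to −0.05) and −0.02 (−0.84 to 0.76) for Foxo1, and −1.10 (−1.81 to −0.41) and −0.26 (−1.10 to 0.53) for Pax5. Without the 179 cells of other-lineage clusters all 3 were below 0 in both libraries, at −0.31 and −0.08 for Blnk, −1.74 and −0.71 for Foxo1, and −1.68 and −0.35 for Pax5, and the Blnk intervals and the Lipo-PBS intervals of the other two included 0. Bach2 was highest in low early cells, at 745 CPM in Lipo-Clo against 1002 CPM in Lipo-PBS. Il2ra (CD25), a classical surface marker of small pre-B cells, was rare, with 14 and 17 UMIs in all, and 11 and 13 of them were in low early cells. Cd52 was highest in low later cells, at 1411 and 1346 CPM, against 389 and 332 CPM in low early cells.

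Rag1, a selecting gene, is given by stage as a description. It stood at 45 CPM (19 UMIs) in high dividing and 203 CPM (20 UMIs) in high not dividing cells of Lipo-Clo, and at 23 CPM (3 UMIs) and 155 CPM (8 UMIs) in those of Lipo-PBS. Among low early cells it stood at 72 CPM in dividing and 184 CPM in not dividing cells of Lipo-Clo, and at 61 and 182 CPM in those of Lipo-PBS. Its level among the precursors was set in part by the rule, which shallow cells pass only with UMIs of the selecting genes, and several of these counts are small. Rag2 had 24 and 9 UMIs in all and could not be followed. Il7r was spread over all stages, with 41, 16, 133 and 40 UMIs from high dividing to low later in Lipo-Clo and 31, 15, 65 and 24 in Lipo-PBS. It was 3.02-fold higher in low than in high cells of Lipo-Clo, whereas in Lipo-PBS the log2 ratio of high over low was −0.08 (−0.62 to 0.45). Without the 179 cells it was 5.32-fold higher in low cells of Lipo-Clo, and the log2 ratio of high over low in Lipo-PBS was −0.58 (−1.32 to 0.13). Kit, the stem cell factor receptor of pro-B cells, had 15 and 5 UMIs, and Fcer2a of mature B cells had 0 and 1.

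**Figure D3:**
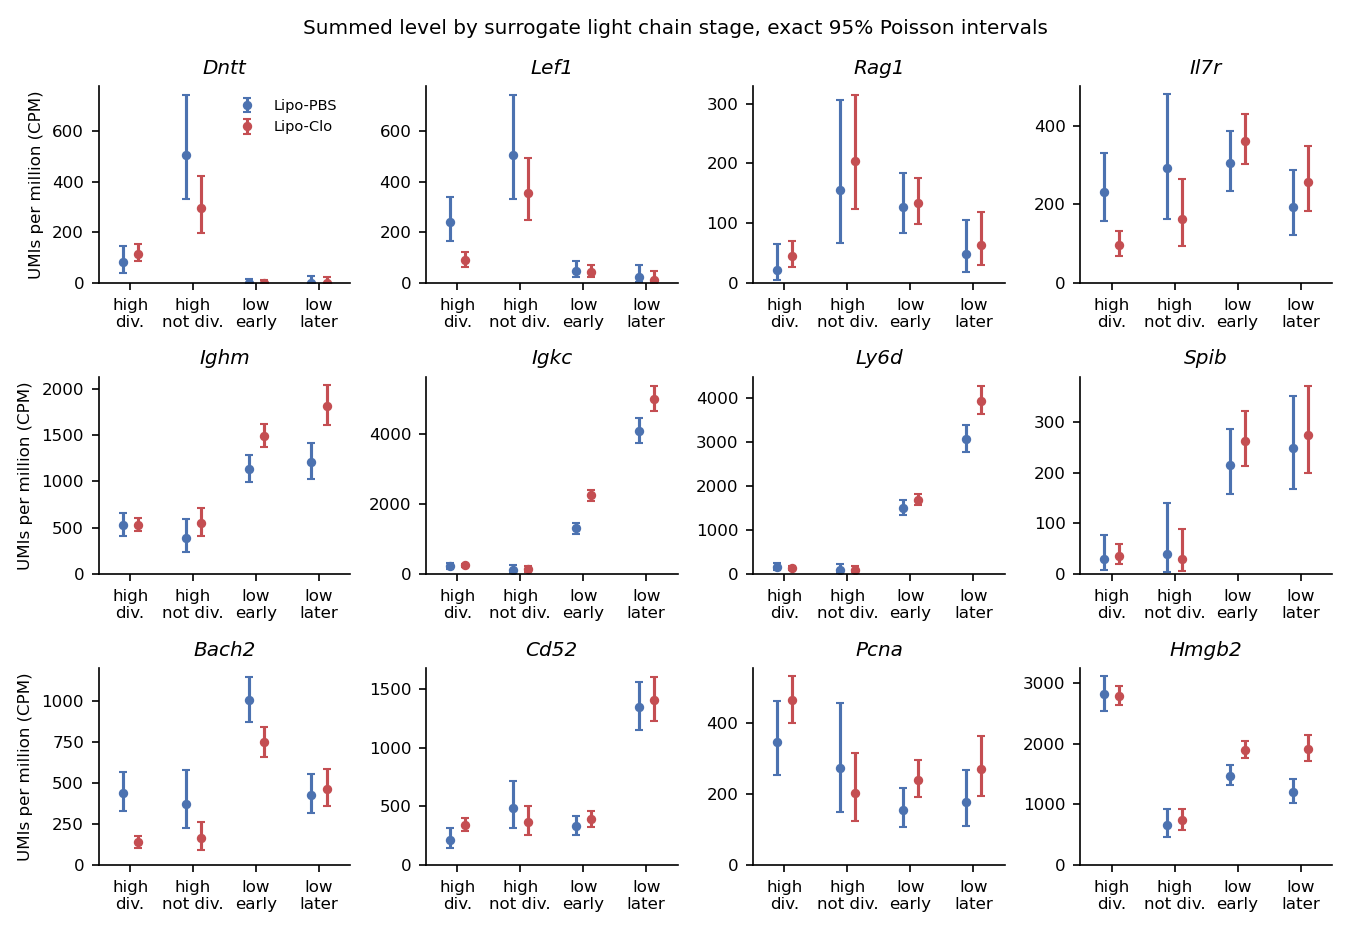
Summed level (CPM, y axis, from 0) of 12 genes in the 4 stages of B cell precursors (high or low, surrogate light chain; div., dividing), for Lipo-PBS and Lipo-Clo. Bars are exact 95% Poisson intervals of 1 library; Dntt and Lef1 lie in the surrogate light chain high cells, while Igkc, Ly6d and Spib lie in the low cells of both libraries.

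A wider set of genes was ranked after its values were seen, by the smaller of the ratios in both libraries, without the 179 cells of other-lineage clusters. Mitochondrial, haemoglobin, immunoglobulin and most ribosomal protein genes were left out, as were other-lineage markers and the mitosis and surrogate light chain gate genes. Of the 1659 remaining genes with at least 20 UMIs in each library, 114 (6.87%) were at least 1.5-fold higher in surrogate light chain high cells in both libraries. Another 212 (12.8%) were at least 1.5-fold lower in both. After Dntt the leading genes were Bfsp2 (log2 3.39 in Lipo-Clo against 2.84 in Lipo-PBS), the cell cycle kinase Cdk6 (2.83 and 3.59) and Ramp1 (2.75 and 2.67). Others among the first 10 were the RNA host gene Snhg3 (2.63 and 1.91), the mitochondrial proteins C1qbp (2.31 and 1.61) and Hspe1 (2.99 and 1.55), and the growth regulator Pa2g4 (2.64 and 1.55). On the other side Cd74 led, at 30.5-fold and 96.6-fold higher in low cells, with 24 and 2 UMIs in high cells. Ms4a1, H2-Eb1 and H2-Aa, genes of the later gate like Cd74, were also among the first 10, as were Ly6d, Ifi30, Serinc5 and Spib. The cochaperone Dnajc7, ranked after several of these, was 10.4-fold and 11.0-fold higher in low cells and Ikzf3 20.5-fold and 11.2-fold.

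Variable segments of the immunoglobulin genes were sparse in these libraries. An Ighv segment was detected in 32 Lipo-Clo precursors (8.51%) and 20 Lipo-PBS precursors (10.8%), and in 1 of 139 and 0 of 110 T or NK cells. Igkv segments were detected in 44 (11.7%) and 33 (17.8%) precursors and in no T or NK cell. In Lipo-Clo an Igkv segment was found in 1 of 60 high dividing and 2 of 40 high not dividing cells, against 28 of 191 low early and 13 of 85 low later cells. In Lipo-PBS it was found in 6 of 24 and 0 of 22 high cells, against 15 of 90 and 12 of 49 low cells, so the high dividing cells of that library did not keep the pattern. Clonal make-up was not analysed here because most positive cells held 1 UMI.

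Levels were then compared between conditions over all precursors, with the UMIs of a library summed and scaled to CPM. Of 3858 genes detected in at least 10% of the precursors of either library, 323 (8.37%) were at least 1.5-fold higher in Lipo-Clo and 893 (23.1%) at least 1.5-fold lower, and the median over all genes was a log2 ratio of −0.10. This split depended on scaling. With edgeR TMM factors 844 genes were higher and 477 lower, and with DESeq2 size factors 800 and 500, so the share of higher among called genes went from 26.6% to 63.9% and 61.5%. TMM moved the median of all genes by 0.26 and DESeq2 factors by 0.25. With each cell thinned to 1000 UMIs, 304 genes were higher and 450 lower (40.3% higher), and DESeq2 factors from the genes used gave 464 and 729 (38.9% higher). The filter also favoured differences, since a gene could pass through 1 library alone. Of the called genes, 125 of the 323 higher and 565 of the 893 lower passed only in the library where they were higher. With a filter on detection averaged over both libraries, a choice made after seeing the data, 250 genes were higher and 604 lower of 3292. Directions of single genes near 0 were therefore not fixed by these data.

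Among the listed B lineage genes that passed the detection filter, the surrogate light chain genes Vpreb1b, Igll1 and Vpreb1a stood highest. Vpreb1b had a log2 ratio of 1.24 (0.39 to 2.19) and passed the filter only in Lipo-Clo. Some listed genes below the filter stood as high or higher, such as Nfatc1 at 1.06 (−0.26 to 2.64). Ackr3 was at 1.70 (0.17 to 3.68, 26 and 4 UMIs) and Jak3 at 2.17 (−0.68 to 7.63, 9 and 1 UMIs). Igll1 was at 803 CPM in Lipo-Clo against 455 CPM in Lipo-PBS (log2 ratio 0.82, 0.61 to 1.03), and Vpreb1a at 424 and 256 CPM (log2 ratio 0.73, 0.44 to 1.02). Igll1 and Vpreb3 are rule genes and are given as descriptions. The share of cells with Igll1 was nearly equal, at 28.5% and 27.0%. With each cell thinned to 1000 UMIs the log2 ratio was 0.12 for Igll1 and −0.10 for Vpreb1a, and with stages weighted alike it was 0.36 and 0.34. Within high dividing cells Igll1 stood at 1407 and 968 CPM, and within high not dividing cells at 2398 and 2039 CPM. Vpreb3, whose level among the precursors is largely set by the rule, stood at 2121 and 2036 CPM (log2 ratio 0.06, −0.05 to 0.17). The receptor chains, which the rule did not use, had log2 ratios of 0.17 (0.02 to 0.33) for Cd79a, −0.03 (−0.22 to 0.16) for Cd79b and 0.20 (0.05 to 0.36) for Ighm.

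Ms4a1 and Cd74, genes of maturing B cells, were lower in Lipo-Clo over all precursors, but the list they belong to turned with the mixture of stages. Ms4a1 (CD20) stood at 84.2 CPM (88 UMIs) in Lipo-Clo against 176 CPM (92 UMIs) in Lipo-PBS (log2 ratio −1.06, −1.50 to −0.62). It was detected in 13.0% and 20.5% of precursors, and in 2.92% and 9.77% after thinning to 1000 UMIs. Ighd had 12 and 15 UMIs (log2 ratio −1.32, −2.55 to −0.13). Cd74, the MHC class II invariant chain, had a log2 ratio of −0.58 (−0.74 to −0.42), but 131 of its 553 Lipo-PBS UMIs came from 3 of the 24 high dividing cells, and with stages weighted alike the ratio was 0.13. Of the 5 later-gate genes that passed the 10% filter, 3 were at least 1.5-fold lower (against 23.1% of all genes), with a median of −0.75, and H2-Ab1 was not (0.16, −0.27 to 0.62). H2-Aa and H2-Eb1, both among those 3, passed the filter only in Lipo-PBS, where they were higher. With stages weighted alike 0 of the 5 were lower, 3 were above 0 and the median was 0.09. Ms4a1 stayed lower with stages weighted alike, at −0.46. Igkc had a log2 ratio of 0.07 (−0.05 to 0.19) over all precursors and 0.78 in low early cells. The low early cells lay in clusters that the libraries filled unequally. Of them, 75 were in the cluster led by Dnajc7, Bcl7a and Cnp (78 Lipo-Clo and 10 Lipo-PBS precursors). A further 52 were in that led by Ikzf3, Dnajc7 and Rhoh (21 and 33 precursors), and the part of this in the ratio was not tested. Of the lambda genes, Iglc1 stood at 205 and 472 CPM (log2 ratio −1.21, −1.48 to −0.94), Iglc2 had −0.73 (−1.12 to −0.33) and Iglc3 0.29 (−0.11 to 0.70), and reads could be split between these similar genes.

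Transcription factors of the B lineage mostly had ratios below 0, by an extent that depended on scaling. Of 37 listed, 27 passed the filter, 24 had a ratio below 0, 9 were at least 1.5-fold lower and none was 1.5-fold higher, with a median of −0.37. Over all genes 2152 of 3858 were below 0, 23.1% were at least 1.5-fold lower and the median was −0.10. With TMM or DESeq2 factors 1 of the 27 was at least 1.5-fold lower and 18 were below 0. Over all 3858 genes 477 and 500 were at least 1.5-fold lower with these factors. Of the 9, 2 passed the filter only in Lipo-PBS. Ebf1, which opens the B cell programme, stood at 1788 and 2344 CPM (log2 ratio −0.39, −0.50 to −0.29). Pax5, which holds B lineage commitment, stood at 81.3 and 122 CPM (log2 ratio −0.59, −1.07 to −0.10). Bach2 had −0.71 (−0.92 to −0.50), Foxp1 −0.69 (−0.93 to −0.45), Lef1 −0.64 (−1.10 to −0.17), Ikzf3 −0.76 (−1.33 to −0.20) and Rel −1.23 (−1.82 to −0.64). Across all scalings and cell sets tried the list's median stayed between −0.49 and −0.11. Ebf1 was also found in other cells of these libraries, and at higher levels in Lipo-PBS, at 33.4 and 182 CPM in T or NK cells and 155 and 283 CPM in Col1a1-rich cells. Mesenchyme markers in the precursors were lower in the same direction. Without the 179 cells the Ebf1 ratio was −0.64, and the part of RNA from other cells in it was not tested. In high dividing cells Ebf1 had a log2 ratio of −1.04 and Bach2 −1.67, while in low later cells they had 0.19 and 0.12. By its summed CPM the same list had a log2 ratio of −0.40 in the precursors, −0.82 in T or NK cells and −0.02 in Col1a1-rich cells. The T or NK cells carried more progenitor and neutrophil RNA in Lipo-Clo than in Lipo-PBS, and its part in their value was not tested.

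Signalling genes of the pre-B cell receptor were at least 1.5-fold lower at about the rate of all genes. Of 30 listed, 24 passed the filter, 21 had a ratio below 0 and 6 were at least 1.5-fold lower, near the 23.1% of all genes, with a median of −0.28. With TMM factors 1 was lower, against 477 of all 3858 genes, with 12 above and 12 below 0. Under the alternatives the median ran from −0.59 to 0.01. Lyn, a kinase of the receptor, had a log2 ratio of −0.81 (−1.13 to −0.49) and Vav3 −1.09 (−1.88 to −0.32), though Vav3 passed the filter only in Lipo-PBS, whereas Blnk, its adaptor, had −0.16 (−0.51 to 0.19) and Syk −0.23 (−0.61 to 0.14). Of 15 genes of V(D)J recombination 5 passed the filter and none reached 1.5-fold, with Dntt at 0.08 (−0.50 to 0.68). With TMM factors 1 of the 5 was at least 1.5-fold higher, against 844 of all 3858 genes. Rag1, at 0.16 (−0.37 to 0.70), is among the 5 but is a rule gene and is given as a description. Of 24 listed genes for receiving niche signals, 11 passed the filter and 10 were below 0. Of these, 3 (Itgb1, Itga4 and Socs3) were at least 1.5-fold lower, near the 23.1% of all genes. With TMM factors 2 were, against 477 of all 3858 genes, and 6 were above 0. Il7r had −0.23 (−0.54 to 0.09). Cxcr4, the receptor that holds precursors in marrow, was the 1 gene above 0, at 0.22 (−0.17 to 0.62). The integrins Itgb1 and Itga4 had −1.49 (−1.84 to −1.15) and −0.68 (−1.14 to −0.22). Socs3, at −1.47 (−2.19 to −0.77), passed the filter only in Lipo-PBS. Itgb1 is also a gene of mesenchymal cells, whose markers were lower in the same direction (8 of 9 at least 1.5-fold lower, of which 2 passed the filter only in Lipo-PBS, median −1.11), and their part in it was not tested.

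**Figure D4:**
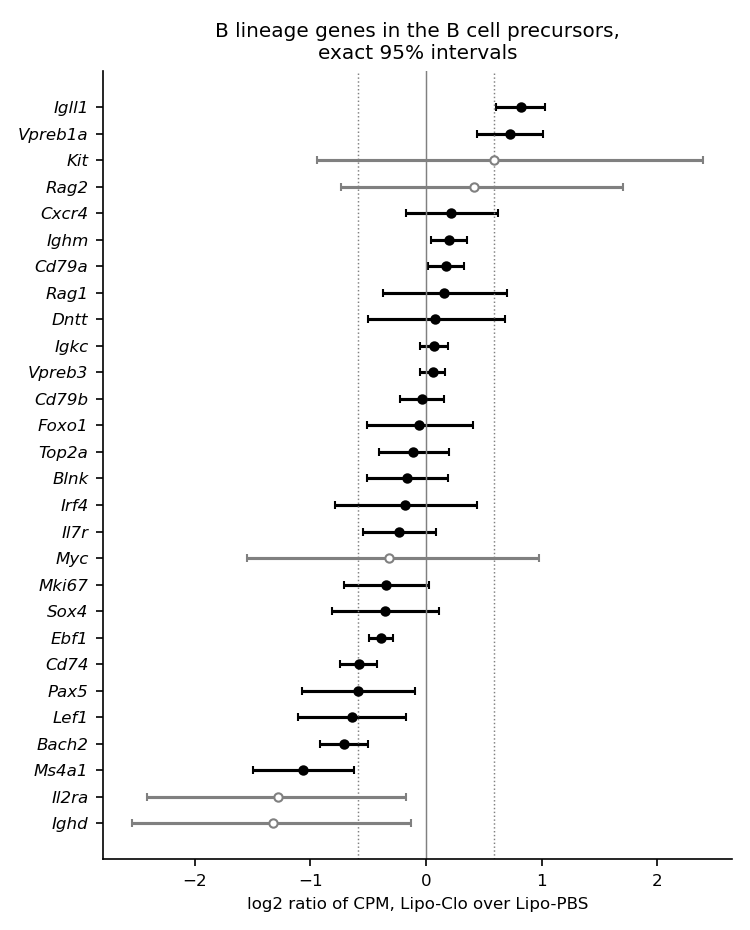
Log2 ratio of CPM, Lipo-Clo over Lipo-PBS (x axis), for 28 B lineage genes in the precursors, sorted by ratio. Points are 1 library against 1, bars are exact 95% intervals for counting error, open grey points mark genes below the 10% filter and dotted lines 1.5-fold; Igll1 and Vpreb1a lie highest and Ighd, Il2ra and Ms4a1 lowest.

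Mitochondrially encoded genes were lower in Lipo-Clo, whereas nuclear genes of oxidative phosphorylation had small ratios mostly above 0. The mitochondrially encoded genes summed to 3747 CPM in Lipo-Clo against 18096 CPM in Lipo-PBS precursors (log2 ratio −2.27, −2.33 to −2.22), and all 12 that passed the filter (2 of them only in Lipo-PBS) were at least 1.5-fold lower under the main scaling, against 23.1% of all genes. Their median stayed between −2.46 and −1.93 under the alternatives. The nuclear genes of oxidative phosphorylation summed to 28590 and 23275 CPM (log2 ratio 0.30, 0.27 to 0.33), with 43 of 44 above 0, 2 at least 1.5-fold higher (against 8.37% of all genes) and a median of 0.29 (0.07 to 0.55 under the alternatives). With TMM factors 21 of 44 were at least 1.5-fold higher, against 844 of all 3858 genes, and with DESeq2 factors 19, against 800. After thinning to 1000 UMIs, however, 23 of 41 were above 0, with a median of 0.07. The mitochondrial difference was not particular to the precursors. Its log2 ratio was −2.36 in T or NK cells and −2.38 in Col1a1-rich cells, and the median mitochondrial share over kept cells was 0.289% in Lipo-Clo against 1.67% in Lipo-PBS. The summed nuclear genes had log2 ratios of 0.41 and 0.30 in the same cells.

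Cell cycle genes summed to 13100 and 10393 CPM, with 25 of 34 above 0, 4 at least 1.5-fold higher (Mcm5, Pcna, Cdk4 and Cdkn1a; 8.37% of all genes were), 1 lower (Ccnd2, against 23.1% of all genes) and a median of 0.10 (−0.01 to 0.40 under the alternatives). With TMM or DESeq2 factors 10 of 34 were higher and 0 lower. Over all 3858 genes, 844 were higher and 477 lower with TMM, and 800 and 500 with DESeq2 factors. After thinning 6 were higher and 6 lower of 23, where 304 genes were higher and 450 lower in all. Of the 12 mitosis genes behind the dividing gate, 7 were above 0 and none reached 1.5-fold, with a median of 0.04. These values changed with scaling and the treatment of depth. With TMM factors 3 of the 12 were at least 1.5-fold higher, near the rate of all genes with that scaling (844 of 3858). With the mean over scaled cells 2 were, where 371 genes were in all, and all 12 were above 0. After thinning to 1000 UMIs 5 of 11 were, where 304 genes were in all, and the median was 0.53. With doublets left out the median was −0.14. In the main values Mki67 had −0.34 (−0.71 to 0.03) and Top2a −0.11 (−0.41 to 0.20). Of 18 genes that respond to tissue dissociation, 9 were at least 1.5-fold lower, against 23.1% of all genes. Their median was −0.59 (−0.75 to −0.33 under the alternatives). With TMM or DESeq2 factors 5 were at least 1.5-fold lower, against 477 and 500 of all 3858 genes. All 9 were among the 14 that are not heat shock genes, mostly immediate-early genes, whose median was −0.71. The heat shock genes Hspa8, Hsp90aa1, Dnajb1 and Hspb1 were all above 0, between 0.05 and 0.28. Fos stood at 219 and 566 CPM (log2 ratio −1.37, −1.62 to −1.11), and Egr1 at 120 and 308 CPM (log2 ratio −1.36, −1.71 to −1.02). By its summed CPM the dissociation list had a log2 ratio of −0.37 in the precursors, −0.64 in T or NK cells and −0.13 in Col1a1-rich cells. Interferon response genes had a median of 0.38 over the 6 of 24 that passed the filter, from −0.01 to 0.64 under the alternatives, led by Isg15 with 0.60 (0.16 to 1.06) and Ifi27l2a with 0.50 (0.25 to 0.75). Isg15 was the 1 gene at least 1.5-fold higher and Ly6a, at −1.29 (−1.85 to −0.72), the 1 at least 1.5-fold lower, and each passed the filter only in the library where it was higher. Over all genes 8.37% were higher and 23.1% lower by this measure. Of 7 glucocorticoid-responsive genes that passed, 1 (Klf9) was at least 1.5-fold lower, having passed only in Lipo-PBS, against 23.1% of all genes, and the median was −0.19. No gene of the fetal-type lymphopoiesis list passed the filter.

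**Figure D5:**
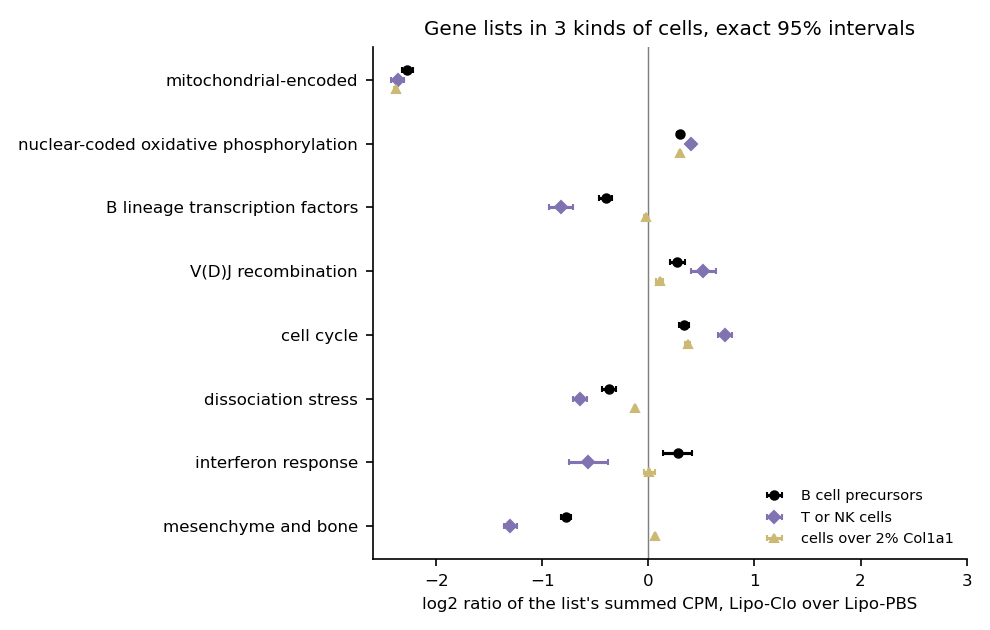
Log2 ratio of the summed CPM of 8 gene lists, Lipo-Clo over Lipo-PBS (x axis), in B cell precursors and 2 other groups of cells. Bars are exact 95% intervals of 1 library against 1. Mitochondrially encoded genes lie between −2.38 and −2.27 in all 3 groups.

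The largest ratios in either direction held few B lineage genes, and the filter had a part in choosing them. Of the 10 highest, 8 passed it only in Lipo-Clo (not Clu and Acp5), and of the 10 lowest, 9 passed only in Lipo-PBS (not Col12a1). Their ratios are given as values. Among the 10 highest, Ccdc167 had 63 UMIs in Lipo-Clo against 6 in Lipo-PBS (log2 2.39, 1.19 to 3.89), Dkc1, the pseudouridine synthase of ribosomal RNA, 51 and 6 (2.09, 0.87 to 3.60), and Ppa1, a pyrophosphatase, 101 and 18 (1.49, 0.76 to 2.30). Impa2, Dgkz, Got2, Rrp15 and Acot13 lay between 1.46 and 1.92. Clu (602 and 77 UMIs, log2 1.97) was a leading gene of the enamel epithelium cluster and had a log2 ratio of −0.82 without the 179 cells. Acp5, an acid phosphatase of osteoclasts, had 151 and 23 UMIs (1.72, 1.08 to 2.42). Among the 10 lowest, Col12a1, Ccn1, Thbs1, Itih5 and Trps1 are expressed by connective tissue cells and Lgals7 by epithelium. Col12a1 had 77 and 190 UMIs (73.7 and 363 CPM) and a log2 ratio of −0.16 without the 179 cells, and Thbs1 turned from −1.96 to 0.90. Lgals7 (−2.54), Mt2 (−2.37), Rbms3 (−2.07), Mllt3 (−2.08) and Agbl1 (−2.04) completed the set.

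Genes by which marrow stroma feeds B cell precursors were read in all other kept cells. Il7, the growth factor sensed by Il7r, had 15 UMIs in Lipo-Clo against 35 in Lipo-PBS (log2 ratio −1.26, −2.24 to −0.35). Kitl had 736 and 1431 UMIs (interval −1.13 to −0.87), Vcam1 had −0.88 (−1.03 to −0.72), Tslp −0.78 (−1.19 to −0.38) and the stromal receptor Lepr −1.28 (−1.46 to −1.10). Cxcl12, the ligand of Cxcr4, was level over these cells at 0.05 (−0.03 to 0.12), as were Flt3l at −0.01 (−0.41 to 0.39) and Igf1 at −0.03. In Col1a1-rich cells alone, Cxcl12 stood at 62.4 and 76.1 CPM, Flt3l at 3.17 and 1.80 CPM (38 and 22 UMIs) and Igf1 at 887 and 676 CPM. Il7 (4 and 7 UMIs), Kitl, Vcam1, Tslp and Lepr were lower in Lipo-Clo there too. In sum over cells, fewer stromal cells and less RNA per stromal cell cannot be told apart. Lipo-Clo thus held the larger share of precursors beside lower levels of several of these ligands, and no relation between them was tested.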

How the data were processed

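Both libraries were dissociated mandibular first molars with surrounding tissue. The authors deposited raw UMI counts per gene and cell for 34285 genes. Per the file headers these came from Cell Ranger 8.0.0, whereas the submitters' processing notes name Cell Ranger 3.1.0, Seurat 3.1.1 and GRCm39 (mm39). No filter by the authors is given in the sources used here. Under 200 genes or over 20% mitochondrial UMIs removed a cell, which left 8886 (Lipo-Clo) and 8894 (Lipo-PBS).

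The precursors, the gene lists and the stage gates were chosen with earlier results of these data known. Counts of the members were summed per library and divided by the total (CPM), and ratios carry exact intervals for 2 Poisson counts. With 1 library per group there is no test. Named genes were 29 fixed ones, of which 1 is not reported here, as is a comparison group gated with it, and the 10 largest ratios in each direction with at least 50 UMIs and 1 sign in every stage with at least 20 UMIs, without mitochondrial, haemoglobin, immunoglobulin segment and other-lineage marker genes. Doublets were scored with Scrublet in scanpy 1.11.5; its automatic threshold called 0 and 1 cells, so the highest scores were used, and these cells stayed in the main results. Members were clustered with leidenalg 0.10.2 at resolution 0.8, and a cluster was taken as led by another lineage where at least 3 of that lineage's markers stood out, more than of any B lineage list; this split was chosen after the data had been seen. Alternatives were other limits of the rule and gates, other cell filters, thinning, scaling, gene filters and fold limits. edgeR 4.0.16 and DESeq2 1.42.0 gave scaling factors alone. The ratio computation was tested on simulated data.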

Additional observations from a re-analysis of the deposited data

How the results depend on the processing

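No paired analysis was possible because Lipo-Clo and Lipo-PBS are single libraries, and leaving out a replicate would leave no comparison. The log2 ratio of the precursor share ran from 0.85 to 1.27 and that of the dividing share from 0.19 to 0.46 over the alternatives tried. The surrogate light chain share had a log2 ratio of 0.96 when taken from expression clusters (67 of 376 and 17 of 185 cells), and the cause was not tested. Genes higher and lower at 1.5-fold were 844 and 477 with TMM, 800 and 500 with DESeq2 factors, and 866 and 2011 over genes with at least 20 UMIs. They were 1920 and 4671 over genes with a UMI in both libraries, 59 and 312 at 2-fold, and 842 and 1395 at a lower limit that was planned. Thinning to 1000 UMIs gave 450 lower, and members with at least 1000 UMIs, a choice made after seeing the data, 499 higher and 1335 lower.

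Signs turned for Vpreb1a (log2 −0.10), Cd79a (log2 −0.019), Clu (−0.11) and Thbs1 (0.20) after thinning, for Ighm (log2 −0.069) and Acp5 (−0.11) at 5 or more rule UMIs, for Cd74 (0.13) with stages weighted alike, and for Clu (−0.82) and Thbs1 (0.90) without the other-lineage clusters, also chosen afterwards; the cause was not tested. Depth limits the genes of under 50 UMIs, such as Rag2, Kit and Ighd.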
